A study of Mus musculus with 6 samples.

Results

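Stem cells of the mouse jejunal crypt that carried Lgr5 and Olfm4 transcripts but few transcripts of mitosis were examined in 6 single-cell RNA libraries. They were chosen by counts of unique molecular identifiers (UMIs, each standing for 1 captured RNA molecule). A barcode, which stands for 1 droplet, first had to hold at least 750 genes and at most 20% mitochondrial UMIs. It then needed at least 0.2% of its UMIs from Lgr5, Ascl2, Smoc2, Gkn3 and Olfm4 together and at least 1 UMI of Lgr5. Lyz1, a Paneth cell lysozyme, had to stay under 2% of UMIs, and the goblet genes Muc2, Fcgbp, Clca1, Tff3 and Zg16 together under 3%. The mitotic genes Mki67, Top2a, Cdc20, Ccnb1, Ccnb2, Cenpf, Ube2c, Tpx2 and Nusap1 had to stay together under 0.2%. The tuft cell kinase Dclk1 had to be at 0 UMIs. Of 59457 barcodes called as cells, 26696 passed the first filters and 495 met all conditions, 1.85% of those that passed.

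The mice were male wildtype C57BL/6J animals of about 30 weeks, taken after an overnight fast, 5 weeks after surgery. The diets had been given for 16 weeks before surgery and were resumed after it. Low-fat diet mice with a sham operation (LFD sham, 3 mice), high-fat diet mice with a sham operation (HFD sham, 3 mice) and high-fat diet mice with vertical sleeve gastrectomy (HFD VSG, 2 mice), an operation that removes most of the stomach, each gave 1 pooled crypt-labelled and 1 pooled villus-labelled library. Every condition was thus a single pool of mice in each compartment. Conditions were therefore compared without a test, and intervals on such values cover counting error only. The effect of diet was read from HFD sham over LFD sham and that of surgery from HFD VSG over HFD sham, so that the HFD sham libraries enter both.

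Lgr5 marks the crypt base columnar cells that renew the intestinal epithelium. Lgr5 itself is a receptor for R-spondins, secreted proteins that strengthen the Wnt signalling on which the stem state depends, and Wnt ligands come in part from the neighbouring Paneth cells. Their daughters divide rapidly, move up the crypt and become absorptive enterocytes or secretory cells, and the stem cells can also carry MHC class II, the complex that presents peptides to helper T cells.

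Of the 495 cells 366 came from villus-labelled libraries and 129 from crypt-labelled ones, although stem cells lie in crypts. Of the dividing cells 744 of 919 and of the Paneth cells 438 of 556 were also in villus-labelled libraries, and enterocyte markers of all other barcodes stood at 81473 to 90526 CPM in crypt-labelled and 34198 to 60148 CPM in villus-labelled libraries. These contents run against the labels, though not in every condition. HFD sham held near equal shares of stem cells in both compartments (given below), and HFD VSG held 41 Paneth cells in crypts and 43 in villi. Whether labels were exchanged or the separation was incomplete cannot be told apart here, and crypts and villi are used here only as the libraries' labels. By library, 22 of 4610 barcodes were stem cells in LFD sham crypts (0.477%, exact binomial 95% interval 0.299 to 0.722), 29 of 3286 in HFD sham crypts (0.883%, 0.592 to 1.27) and 78 of 5232 in HFD VSG crypts (1.49%, 1.18 to 1.86). In the villus-labelled libraries there were 131 of 4556 in LFD sham (2.88%, 2.41 to 3.40), 36 of 4315 in HFD sham (0.834%, 0.585 to 1.15) and 199 of 4697 in HFD VSG (4.24%, 3.68 to 4.85). HFD VSG thus held the largest share in both compartments, while LFD sham held the smallest share among crypts and the second largest among villi.

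Depth enters these shares, since a single UMI of Lgr5 decided membership. The median stem cell held 9946 to 13818 UMIs in 5 libraries and 25602 in HFD VSG villi, which supplied 56.1% of the 10112677 UMIs of all stem cells. With every barcode thinned to 2000 UMIs and shallower ones left out (86 to 281 per library), the shares were 0.228%, 0.382% and 0.659% in LFD sham, HFD sham and HFD VSG crypts and 1.28%, 0.347% and 1.47% in the villi. The order of the libraries stayed the same, with LFD sham and HFD VSG villi within each other's intervals (0.966 to 1.66 and 1.15 to 1.87).

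**Figure D1:**
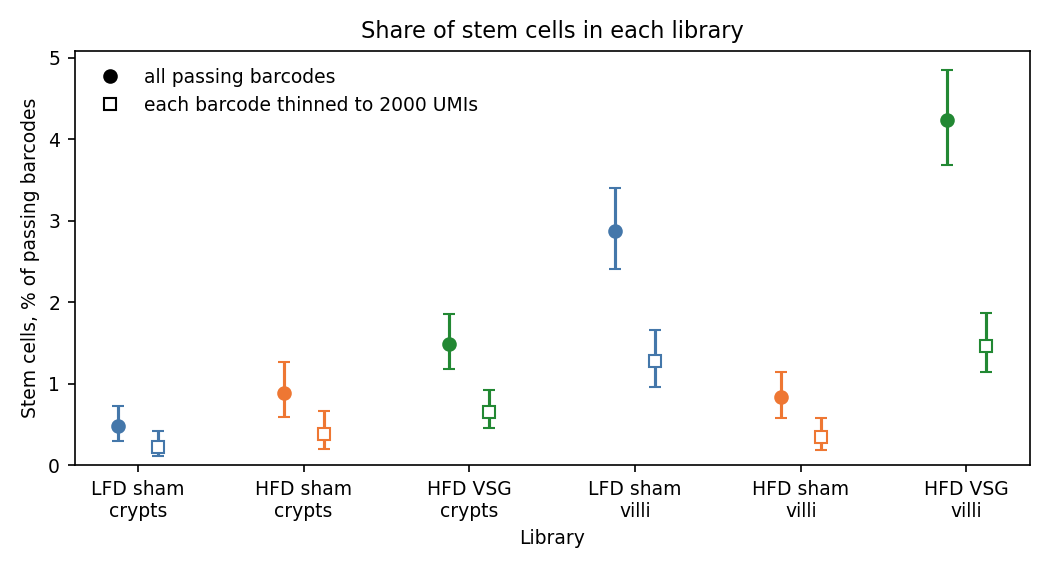
Stem cells as a percent of passing barcodes (vertical axis) in each of the 6 libraries (horizontal axis), with all barcodes (filled circles) and after thinning to 2000 UMIs (open squares); bars are exact binomial 95% intervals. LFD sham and HFD VSG villi stand highest on either measure, at 2.88% and 4.24% before thinning.

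The 5 genes of the choice are given as a description. Olfm4, a secreted glycoprotein of crypt base cells, had a UMI in all 495 cells and stood at 5587 to 6129 CPM (UMIs scaled to the same total in each library) over the 6 libraries. Smoc2, a matrix protein, was found in 88.9% to 100% of the cells of a library, Gkn3 in 58.6% to 85.9%, and Ascl2, the Wnt-driven transcription factor of stem cell identity, in 31.0% to 68.3%. Lgr5 lies at chr10:115450311-115587780 on the minus strand and Olfm4 at chr14:79984081-80023139 on the plus strand of mm10. In barcodes of immune cells of the same libraries, which should lack Lgr5, a UMI of it appeared in 0 to 1.28% (5 to 656 barcodes per library, median depth 2007 to 5416 UMIs). A UMI of Olfm4 appeared in 3.49% to 40.0% of them, the highest share being 2 of 5 barcodes. The limit of 0.2% fell within a continuous range: 46 members lay between 0.2% and 0.3%, and 46 barcodes that met every other condition lay between 0.1% and 0.2%. Per cell, the 5 genes took a median of 0.623% to 0.744% of UMIs and Lgr5 a median of 2 to 4 UMIs.

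Markers of other cells were present at levels that differed between libraries. Enteroendocrine markers summed to 1582 CPM in HFD sham crypts (588 without the cell with the most Chgb), 334 CPM in HFD VSG crypts and at most 51.6 CPM elsewhere. Tuft markers summed to 0 to 8.31 CPM and immune markers to 0 to 50.8 CPM. Paneth markers summed to 557 to 6101 CPM, goblet markers to 950.3 to 5303 CPM and enterocyte markers to 2816 to 22528 CPM. The free RNA of the same libraries, read from droplets with fewer than 100 UMIs, held 27774 to 89929 CPM of the enterocyte markers. The fraction of free RNA, estimated from immune barcodes, was at most 0.281, in HFD VSG crypts. In HFD sham villi it was 0.129 and rested on 5 immune barcodes. The authors' own estimates, by another method, were instead highest in the HFD sham libraries. A doublet score placed 2 to 14 of the stem cells of a library among its likely doublets, and these were kept. Pairs of libraries shared 2 to 13 passing barcode sequences and no stem barcode.

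To see what the cells had in common beyond the genes of the choice, their UMIs were summed over the cells of a mouse pool. The sums were compared with those of 919 dividing cells, 556 Paneth cells (Lyz1 at 2% or more) and all 26201 passing barcodes that were not stem cells. Dividing cells held the mitotic genes at 0.2% or more and met the limits on Lyz1, goblet genes and Dclk1. In a library 5 to 27 dividing cells also met the stem gene and Lgr5 conditions. A gene was called at a Benjamini-Hochberg adjusted p under 0.05 in edgeR's quasi-likelihood test, with the 3 mouse pools as blocks, and a log2 fold of at least 1. All groups were cut on counts of the same barcodes, so genes that travel with the genes of the choice had to differ. The adjusted p rests on variation between the 3 pools, which edgeR estimates partly from all genes together.

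Against dividing cells, stem cells held more of the stem cell programme, of Wnt feedback and of MHC class II, and slightly less of the nuclear oxidative phosphorylation genes. Of 11127 genes tested, 802 (7.21%) were higher and 537 (4.83%) lower in stem cells. Of 26 stem cell genes outside the choice, 20 were higher and none passed lower, with a median log2 fold of 1.53 where the median of all genes was 0.00. Soat1, which esterifies cholesterol, stood at 239, 199 and 163 CPM in stem cells of the LFD sham, HFD sham and HFD VSG pools and at 32.4, 36.8 and 18.4 CPM in dividing cells (log2 fold 2.89, SE 0.11, edgeR adjusted p 3.01e-09). Pdgfa, a growth factor for the mesenchyme, stood at 157, 159 and 288 CPM against 28.1, 37.9 and 31.0 CPM (log2 fold 2.73, SE 0.15). In both genes the lowest pool of stem cells was several times above the highest pool of dividing cells.

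The chloride cotransporter gene Slc12a2 had a UMI in every stem cell and stood at 1773, 1620 and 1288 CPM, against 439, 495 and 282 CPM in dividing cells (log2 fold 2.00, SE 0.08). Ifitm3, an antiviral membrane protein, reached a log2 fold of 2.38 (SE 0.11) and Rgmb, a BMP co-receptor, 2.04 (SE 0.09). Fstl1 had the largest fold of the list at 4.17 (SE 0.21), from a low level of 23.6 to 26.2 CPM in the stem cells. A gene that differed less was Cps1, the entry enzyme of the urea cycle (log2 fold 0.17, SE 0.06). Sult1d1, a sulfotransferase, was lower at a log2 fold of -0.50 (SE 0.11), below the size asked for.

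Of 19 Wnt genes tested, 10 were higher than in dividing cells and none passed lower, with a median log2 fold of 1.01. Axin2, a feedback gene that restrains the pathway, stood at 308, 229.8 and 207 CPM in the 3 pools of stem cells (log2 fold 1.56, SE 0.09). Rnf43, which removes Wnt receptors, had a log2 fold of 1.51 (SE 0.09), and the target genes Sp5 and Sox9 had 2.27 (SE 0.15) and 1.53 (SE 0.08). Ephb3, which positions cells along the crypt, had 2.26 (SE 0.18). The receptor and transducer genes Lrp5, Lrp6, Lgr4, Ctnnb1 and Tcf7l2 had folds of 0.12 to 0.20 that did not pass, and the receptor Fzd5 was lower at -0.77 (SE 0.11), under the size asked for. In the Notch pathway Sox4 (1.68, SE 0.08), Dtx4 (1.06, SE 0.14) and the receptor Notch1 (1.00, SE 0.11) were higher, 3 of 13 genes tested, while the effector Hes1 had a log2 fold of 0.55 (SE 0.10).

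Most gene groups of growth and energy differed by less than the 2-fold asked for. At an adjusted p under 0.05 and any size, 20.4% of all genes were higher and 22.1% lower. Of 74 cytosolic ribosomal protein genes 73 were higher (median log2 fold 0.31), and of 75 nuclear oxidative phosphorylation genes 66 were lower and none higher (median -0.41). The 13 mitochondrially encoded genes had a median of 0.01, with 1 higher and 1 lower. Other lists went both ways at any size: 3 of 26 ribosome biogenesis genes were higher and 8 lower, 2 of 17 glycolysis genes higher and 10 lower, and 5 of 30 fatty acid oxidation, ketogenesis and PPAR target genes higher and 15 lower. The glycolysis enzyme gene Hk2 was higher by the full rule (1.78, SE 0.10) and Pfkp lower (-1.33, SE 0.16). Paneth markers (10 of 11 higher, median 0.72), enterocyte markers (7 of 10, median 0.57), enteroendocrine markers (4 of 4, median 1.54) and transcripts of damaged droplets (6 of 7, median 0.34) were also higher at any size, and their part was not tested. The 4 enteroendocrine genes also passed the full rule, but pools differed. In the LFD sham, HFD sham and HFD VSG pools, Chgb stood at 4.63, 457 and 5.10 CPM in stem cells. Dividing cells held 19.7, 90.4 and 1.11 CPM of it. Chga was likewise lower in stem cells of LFD sham (2.52 against 4.16 CPM) and highest in HFD sham (158 against 17.7 CPM). Of 12 immediate early and heat shock genes 7 were higher, among them Jun (log2 fold 0.81, SE 0.11) and Egr1 (0.67, SE 0.11). Of 6 cell cycle inhibitor genes 3 were lower by the full rule: Cdkn2d (-3.60, SE 0.25), Cdkn2c (-2.34, SE 0.18) and Cdkn2b (-1.90, SE 0.15). The limit on mitotic genes bears on the cell cycle genes: the 10 lower genes of largest fold were histones and cell division genes such as Aurka, at 2.29 to 3.35 CPM in the pools of stem cells. The 25 S-phase genes went both ways, with 3 higher and 5 lower by the full rule and a median of 0.05.

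**Figure D2:**
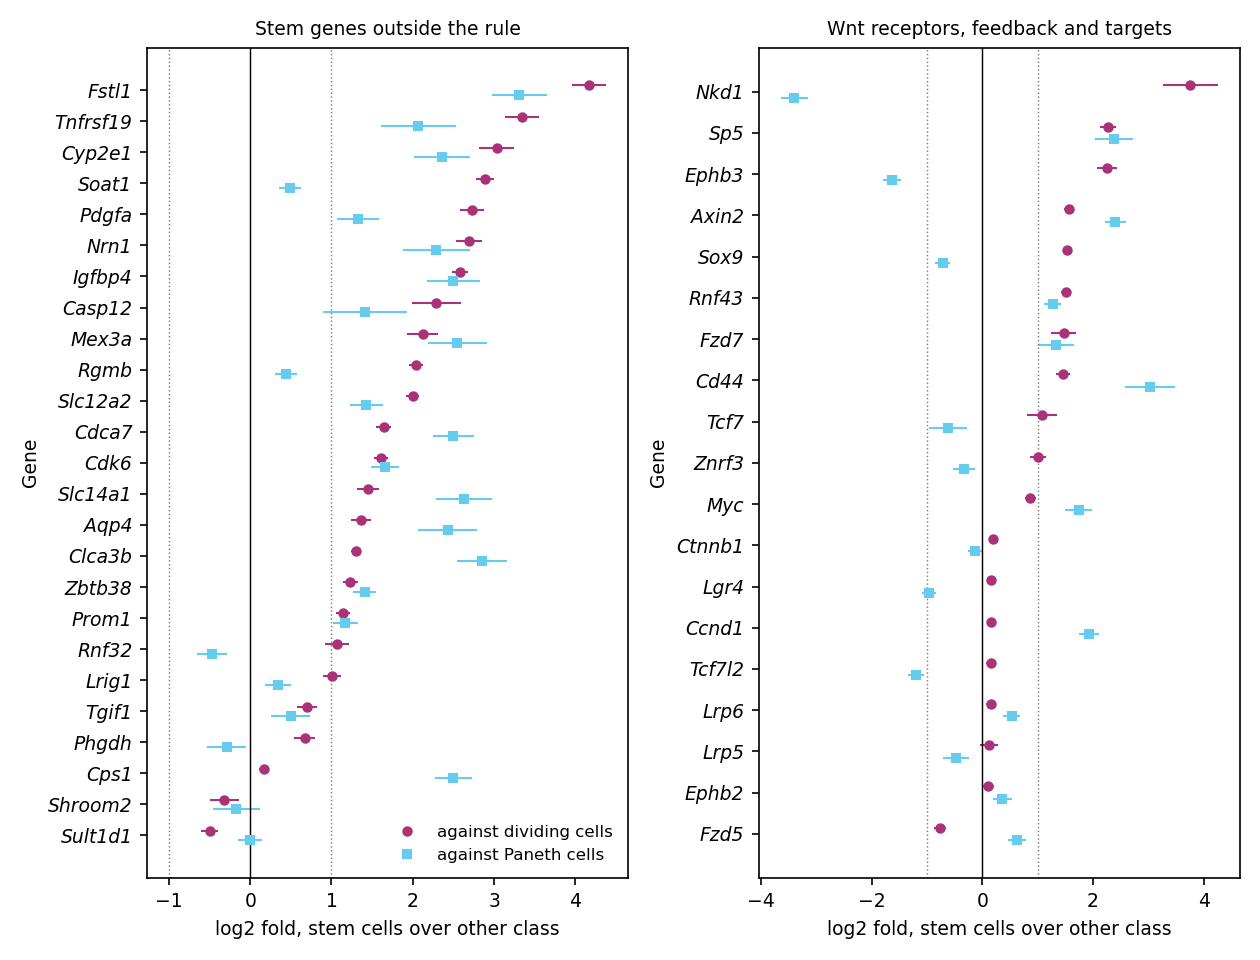
Log2 fold of stem cells over dividing cells (circles) and over Paneth cells (squares) for stem cell genes outside the choice (left, 1 gene not drawn) and Wnt genes (right). Each row is 1 gene, bars are 1 SE from the edgeR fit to 3 mouse pools, and dotted lines mark a log2 fold of 1 either way. Most stem cell genes lie to the right of 1 against either class (20 and 18 of 26 called), while Wnt genes split against Paneth cells, with Nkd1 at -3.40 and Cd44 at 3.03.

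Against Paneth cells, the neighbours at the crypt base, stem cells held more transcripts of DNA replication and of ribosomes, and the Wnt genes split. Of 10588 genes tested, 1095 (10.3%) were higher and 1280 (12.1%) lower. Paneth markers took 590935 to 641507 CPM of Paneth cells and leave little room for other genes on that scale. Folds were scaled by the trimmed mean of M-values (TMM), which allows for this. They lie below the log2 ratio of CPM, so that genes higher in stem cells have smaller folds and lower genes larger ones. Clca3b, a chloride channel regulator family member, stood at 1122 to 1426 CPM in the pools of stem cells and 23.0 to 104 CPM in those of Paneth cells (log2 fold 2.85, SE 0.31, edgeR adjusted p 4.57e-05). Cps1 reached a log2 fold of 2.50 (SE 0.23), Acot1, a peroxisome proliferator target that cleaves acyl-CoA, 2.48 (SE 0.27), and the water channel Aqp4 2.43 (SE 0.36). Of 26 stem cell genes 18 were higher and none lower, but Soat1 (0.49, SE 0.13) and Rgmb (0.44, SE 0.14) were within 2-fold of Paneth cells on the TMM scale.

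Of 25 S-phase genes 19 were higher than in Paneth cells and none lower (median log2 fold 1.81), led by the replicative helicase subunit Mcm6 (2.54, SE 0.30). Of 26 ribosome biogenesis genes 13 were higher and 1, Srm, lower (-1.25, SE 0.19), and of 74 ribosomal protein genes 65 were higher (median 1.20). At any size, against 21.3% higher and 21.9% lower among all genes, 53 of 75 nuclear oxidative phosphorylation genes were higher (median 0.56), the opposite side to the comparison with dividing cells. Of 20 Wnt genes 7 were higher, among them Cd44 (3.03, SE 0.45), Axin2 (2.40, SE 0.19) and Sp5 (2.38, SE 0.34). The 4 lower ones were Nkd1 (-3.40, SE 0.25), Ephb3 (-1.63, SE 0.16), Tcf7l2 (-1.20, SE 0.15) and Notum, which inactivates Wnt ligands and was at 0 to 0.421 CPM in the pools of stem cells. The direction of Ephb3 rests on the scaling. In the LFD sham, HFD sham and HFD VSG pools it stood at 34.9, 27.4 and 23.3 CPM in stem cells and 23.9, 28.9 and 17.4 CPM in Paneth cells. Negative folds nearer 0, such as those of Tcf7l2 and Srm, may rest on the scaling as well. Fos, at a log2 fold of -1.13, stood at 253, 257 and 515 CPM in the same pools of stem cells. Paneth cells held 209.8, 170.4 and 167 CPM of Fos. The 10 lower genes of largest fold were mostly defensins and related genes, with the pentraxin gene Mptx2 among them, and travel with Lyz1; one of them, Gm7849, had 0 UMIs in stem cells.

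Against all other barcodes, 2266 of 14100 genes (16.1%) were higher and 2639 (18.7%) lower. Outside the 5 genes of the choice, among called genes with at least 100 UMIs in every pool of stem cells, Ifitm3 had the largest fold, at 326, 219.5 and 260.1 CPM in the 3 pools of stem cells against 14.6, 6.16 and 12.2 CPM (log2 fold 4.28, SE 0.13, edgeR adjusted p 4.12e-46). Of 26 stem cell genes 24 were higher and only Sult1d1 lower (-1.99, SE 0.13). Of 25 S-phase genes 20 and of 26 ribosome biogenesis genes 19 were higher, led in the latter by Npm1 (1.87, SE 0.15), and none was lower. At any size, 30.5% of all genes were higher and 32.7% lower. By that count 13 of 13 mitochondrially encoded genes (median -0.61) and 70 of 75 nuclear oxidative phosphorylation genes (median -0.67) were lower. Transcripts of damaged droplets were lower for 5 of 7 genes and higher for 2. The mitochondrially encoded genes also enter the limit on mitochondrial UMIs that all barcodes share.

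Against the same barcodes, most defence genes were lower in stem cells. All 6 Reg lectin and Prap1 genes were lower than in other barcodes (median log2 fold -2.70), as were 10 of 14 interferon and MHC class I genes, among them H2-K1 (-1.69, SE 0.13) and B2m (-1.63, SE 0.14), while Ifitm3 and Ifitm2 (2.53, SE 0.13) were higher. Of 11 reserve and revival stem cell genes tested 4 were higher and 3 lower. Msi1 (4.02, SE 0.23), Ccn1 (2.09, SE 0.20), Hopx (1.37, SE 0.12) and Bmi1 (1.02, SE 0.18) were the higher ones, Anxa2 (-2.65, SE 0.14) was among the lower ones, and Ly6a, a marker of the regenerating epithelium, was at 0 to 0.421 CPM. Gcg, the proglucagon gene of enteroendocrine cells, had 0 of 10112677 UMIs in stem cells and 19.9 CPM in other barcodes, at least 66.9-fold lower with a floor of 3 UMIs over all stem cells.

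MHC class II transcripts were higher in stem than in dividing cells and, in either compartment, far lower in stem cells of HFD than of LFD sham mice. All 7 of its genes passed an adjusted p under 0.05 against dividing cells, and 6 the full rule: H2-Eb1 (log2 fold 1.62, SE 0.20), Ciita, the master regulator of these genes (1.42, SE 0.30), H2-Ab1 (1.31, SE 0.17), Cd74, the invariant chain that guides the complex (1.26, SE 0.15), H2-DMb1 (1.15, SE 0.31) and H2-Aa (1.02, SE 0.20). Against all other barcodes none was higher, and H2-Aa was lower (-1.38, SE 0.17). Immune markers were lower than in dividing cells for 2 of 7 genes and higher for none, while the Paneth and enterocyte markers named above were mostly higher. With free RNA subtracted at the same fraction in both classes, summed class II stood at 96.9 to 571 CPM in stem cells and 13 to 196 CPM in dividing cells. It was higher in stem cells in 6 of 6 libraries, which come from 3 pools of mice. The fraction was read from immune barcodes (median 2007 to 5416 UMIs), while dividing cells were deeper (median 14598 to 43230 UMIs). Whether 1 fraction fits both classes was not tested. Cd74 had 388 CPM in stem cells of the LFD sham pool, 81.2 in HFD sham and 57.1 in HFD VSG.

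Promoters of classical MHC class II genes carry a short element, the Y box, in which the CCAAT-binding factor NF-Y recognises the letters GATTGG. The stretches below were read from RefSeq promoters (250 bases before to 50 after the start, GRCm38.p6), are given 5′ to 3′ on the strand of the gene and are shown because these 3 genes hold the letters at a like distance from their starts; capitals mark GATTGG. H2-DMb1 lies on the plus strand (chr17:34153079-34153148), H2-Aa on the minus strand (chr17:34287853-34287922) and H2-Eb1 on the plus strand (chr17:34305757-34305826).
H2-DMb1: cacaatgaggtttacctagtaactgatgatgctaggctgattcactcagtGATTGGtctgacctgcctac
H2-Aa: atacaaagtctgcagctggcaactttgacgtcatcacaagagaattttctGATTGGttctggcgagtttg
H2-Eb1: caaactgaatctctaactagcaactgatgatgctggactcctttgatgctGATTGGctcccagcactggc
Searched on both strands, GATTGG or its reverse complement CCAATC was found in 16.1% of 32851 promoters and in 4 of the 5 promoters of the 4 MHC class II genes in the table. The other 3 of the 7 genes were not searched. Counted from the start, it lay at -62 to -57 in H2-DMb1, -49 to -44 in H2-Aa, -60 to -55 and, on the opposite strand, -35 to -30 in H2-Eb1, and -199 to -194 in H2-DMa. The match is a description of the letters and does not show a bound site.

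Summed over the 7 genes, MHC class II stood at 642 CPM in stem cells of LFD sham crypts, 181 in HFD sham crypts and 126 in HFD VSG crypts, and at 760.5, 139 and 104 CPM in the villus-labelled libraries. HFD sham was lower than LFD sham by a log2 ratio of -1.83 in crypts (95% interval -2.25 to -1.43) and -2.45 in villi (-2.82 to -2.11), and HFD VSG was below HFD sham by -0.52 (-0.95 to -0.09) and -0.42 (-0.78 to -0.04). All 4 HFD libraries were thus below both LFD sham libraries. Both libraries of a condition came from the same pool of mice, and how many other genes split this way was not counted. The smaller step from HFD sham to HFD VSG was less steady. In crypts it was -0.25 with stem genes at 0.3% or more, -0.33 without likely doublets and -0.49 (-0.95 to 0.00) without the top cell of each library. In villi it was -0.10 with median-of-ratios scaling and -0.21 (-0.61 to 0.22) without the top cell of each library.

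The single genes followed the same order between diets. Cd74 stood at 315, 102 and 63.3 CPM in LFD sham, HFD sham and HFD VSG crypts and 399.8, 65.5 and 55.9 CPM in the villi. H2-Ab1 stood at 103, 18.9 and 20.2 CPM in crypts and 122, 17.9 and 15.3 CPM in villi, and H2-Eb1 at 99.9, 35.0 and 16.9 CPM in crypts and 109, 25.8 and 13.9 CPM in villi. H2-Aa rested on few molecules, 3 UMIs in HFD sham crypts and 5 in HFD sham villi against 17 and 132 in LFD sham. The MHC class I gene H2-K1 stood at 227, 275 and 257 CPM in crypts and 203, 161 and 166 CPM in villi, lowest in LFD sham among crypts and highest in it among villi.

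A class II UMI was present in 21 of 22, 18 of 29 and 42 of 78 stem cells of LFD sham, HFD sham and HFD VSG crypts and in 117 of 131, 16 of 36 and 126 of 199 of the villi. Free RNA alone, at the fraction read from immune barcodes, would give a stem cell of median depth 4.11 class II UMIs in LFD sham crypts and 2.59 in LFD sham villi but 0.0765 to 0.401 in the HFD libraries. In every library except HFD sham villi, Paneth cells held less class II than that fraction would bring. The size of the fraction in stem cells was not tested, and a share of cells with a UMI was therefore not read as a share of cells that express the genes. At 2000 UMIs per cell, averaged over all draws, the shares were 58.7%, 26.7% and 17.1% in crypts and 59.7%, 18.8% and 16.6% in villi. Those of Paneth cells, which held 3.27 to 109 CPM of class II, were 49.8%, 2.78% and 3.02% and 19.7%, 2.51% and 1.89%. The cell with the most class II UMIs held 4.69% to 21.4% of them. Stem cells with a UMI of an immune marker numbered 44 in LFD sham villi, 70 in HFD VSG villi and 0 to 2 elsewhere. Without them the summed level was 678, 181 and 127 CPM in crypts and 726, 139 and 101 CPM in villi. The immune markers (Ptprc, Cd3g, Cd3e, Gzma, Gzmb, Ccl5, Cd7 and Nkg7) held no gene specific to B cells or dendritic cells, and a part of such cells was not tested.

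The other classes of the same libraries showed the same order between the 2 diets. Dividing cells held 387, 78.5 and 35.4 CPM in crypts and 385, 34.6 and 40.3 CPM in villi. Other barcodes held 1278, 165 and 108 CPM in crypts and 822, 81.8 and 50.3 CPM in villi. The free RNA held 1171, 155 and 103 CPM in crypts and 879, 59.6 and 45.5 CPM in villi, so that the level followed diet in every class and in the free RNA. With the free RNA subtracted by the fraction read from immune barcodes, the log2 ratio of HFD to LFD sham was -1.23 in crypts and -2.26 in villi.

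**Figure D3:**
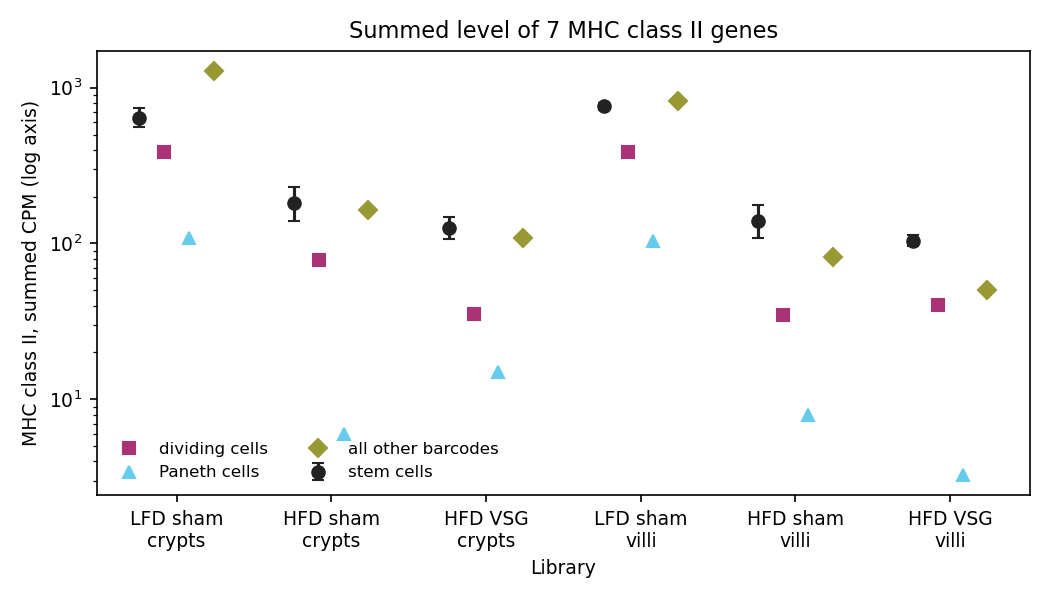
Summed CPM of 7 MHC class II genes (vertical log axis) in each library (horizontal axis), by cell class; bars on the stem cell points are exact Poisson 95% intervals. Stem cells stand at 642 and 760.5 CPM in the LFD sham libraries and at 104 to 181 CPM in the HFD libraries, above dividing cells in all 6.

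Over all genes, differences between conditions were counted at a log2 ratio of CPM of 1 or more, for genes whose UMIs in stem cells averaged 50 or more over the libraries of a compartment. The average was of raw UMIs, and stem cells of HFD VSG held 1185655 in crypts and 5675902 in villi, against 370953 and 503697 in HFD sham. A gene could thus pass mostly through HFD VSG, and the part of this in the counts was not tested. Of 1857 such genes in crypts, 111 (5.98%) were higher and 22 (1.18%) lower in HFD sham than LFD sham, and 8 (0.431%) higher and 13 (0.700%) lower in HFD VSG than HFD sham. Without likely doublets the 111 became 40 (of 1536 genes), and with free RNA subtracted by the fraction from immune barcodes it became 217 and the 13 became 121. Of 5995 genes in villi, 35 (0.584%) and 110 (1.83%) were higher and lower in HFD sham, and 126 (2.10%) and 518 (8.64%) in HFD VSG. The median gene lay at -0.05 and 0.05 in crypts and at -0.02 and -0.20 in villi, and in the last comparison scaling by median-of-ratios moved the median gene to 0.12 and the counts to 357 higher and 196 lower.

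Few genes passed in both compartments. Among 787 genes that averaged 100 or more UMIs in each, Rbp2, an intracellular retinol carrier, and Mme, a brush border peptidase, were higher in HFD than LFD sham, and no gene was lower. Rbp2 stood at 221, 2448 and 1883 CPM in LFD sham, HFD sham and HFD VSG crypts and at 494, 1020 and 194 CPM in villi, and 9.59% to 35.8% of its UMIs in a library lay in 1 cell. Rbp2 is also one of the 10 enterocyte markers. Of the 9 measured in crypts, 8 were past 1 higher in HFD than LFD sham (median 1.99). In villi 1 of 9 was, with a median of -0.04. Agr2, Guca2a, Gm42418, Lars2 and AY036118 were lower in HFD VSG than in HFD sham in both, and none was higher. Agr2, a secretory chaperone, and the peptide hormone gene Guca2a had 20.4% to 71.4% of their UMIs in 1 cell of a library. The last 3 are in the list of damaged-droplet transcripts, which summed to 40189 to 65529 CPM in the sham libraries and to 24094 and 13902 CPM in HFD VSG crypts and villi.

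The stem cell genes outside the choice differed little between conditions. Their median log2 ratio was -0.09 in crypts and -0.20 in villi from LFD to HFD sham, and 0.11 and -0.02 from HFD sham to HFD VSG (14 genes measured in crypts and 24 in villi), the last of these 0.18 above the median of all genes. Pdgfa stood at 197, 156 and 302 CPM in crypts and 151, 161 and 285 CPM in villi, a log2 ratio of HFD VSG to HFD sham of 0.95 (0.55 to 1.38) and 0.83 (0.50 to 1.17). Other barcodes held 59.4, 61.8 and 71.4 CPM and 41.7, 47.4 and 47.2 CPM. Nrn1, a membrane-anchored neuritin, was at 66.6, 48.5 and 80.1 CPM in crypts and 71.4, 29.8 and 70.5 CPM in villi, lowest in HFD sham of either compartment. Tnfrsf19, a Wnt-responsive receptor, was at 51.5, 21.6 and 23.6 CPM and at 32.3, 13.9 and 15.2 CPM, highest in LFD sham, on 7 to 86 UMIs per library. Ifitm3 was at 372, 186 and 168 CPM in crypts and 319, 244 and 279 CPM in villi.

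Wnt genes had medians of -0.21 and -0.12 from LFD to HFD sham and 0.06 and -0.28 from HFD sham to HFD VSG, the last turning to 0.04 with median-of-ratios scaling. Axin2 stood at 312, 189 and 273 CPM in crypts and 307, 260.1 and 193 CPM in villi, so that HFD VSG was above HFD sham in crypts (0.53, 0.16 to 0.93) and below it in villi (-0.43, -0.70 to -0.16). The EGF and BMP signalling list had a median of -0.24 from HFD sham to HFD VSG villi, with 4 of 14 genes above 0. Its members Id1 and Id3, BMP targets, were highest in HFD VSG villi, at 141 and 87.2 CPM against 49.6 and 39.7 CPM in HFD sham villi. Dividing cells held 179 and 77.1 CPM of Id1 in those libraries. S-phase genes had medians of 0.01 and 0.13, then 0.24 and -0.37.

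In metabolism, Acot1 was lower in HFD than LFD sham in both compartments, at 227, 146 and 161 CPM in crypts and 215, 133 and 210.4 CPM in villi (log2 ratio of HFD to LFD sham -0.64 and -0.69). The list of fatty acid oxidation, ketogenesis and PPAR targets had medians of -0.11 and -0.17. In crypts 2 of its 19 measured genes were past a log2 ratio of 1 higher and 0 past 1 lower, and in villi 0 of 29 passed either way. Glycolysis and lactate genes had medians of 0.37 in crypts and -0.02 in villi from LFD to HFD sham. Of these, 10 of 11 genes lay above 0 in crypts and 7 of 15 in villi. Nuclear oxidative phosphorylation genes had medians of 0.11 and 0.06 from LFD to HFD sham, which turned to -0.03 and 0.00 with cells weighted equally, and of 0.00 and 0.37 from HFD sham to HFD VSG. Mitochondrially encoded genes had medians of 0.12 in both compartments, which turned to -0.08 and -0.04 at a maximum of 10% mitochondrial UMIs, then -0.02 and -0.47. The largest difference among them was in mt-Atp8, at 2275 CPM in HFD sham villi and 249.8 CPM in HFD VSG villi, and other barcodes of those libraries held 1793 and 263 CPM.

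Ribosomal protein genes had a median of -0.30 in crypts and -0.05 in villi (0.00 at a maximum of 10% mitochondrial UMIs) from LFD to HFD sham, with 0 and 17 of 74 genes above 0, and 0.28 and 0.63 from HFD sham to HFD VSG, with 73 of 74 genes above 0 in either compartment. Summed, they took 215048 CPM in HFD sham villi and 329200 CPM in HFD VSG villi. Dividing cells of those libraries held 175916 and 262911 CPM and other barcodes 86819 and 211964 CPM. Among the immediate early and heat shock genes, Fos was highest in HFD VSG of either compartment (354 CPM in crypts, 549 in villi), as it was in dividing cells (439.8 and 542). Hspa1a, an inducible heat shock protein, stood at 36.3, 21.6 and 1.69 CPM in crypts and 62.1, 69.5 and 4.23 CPM in villi. Other barcodes held 1.46 and 5.12 CPM of it in the HFD VSG libraries against 4.40 and 38.1 in HFD sham. Depth was greatest in HFD VSG villi and free RNA lowest there. The 7 damaged-droplet transcripts of stem cells summed lower in HFD VSG than HFD sham, at 24094 against 65529 CPM in crypts and 13902 against 44509 CPM in villi. In crypts 3 of the 7 genes were past a log2 ratio of 1 lower and 3 lay above 0. In villi 4 were past 1 lower and 0 lay above 0. Whether these genes mark damage here was not tested. The part of depth, free RNA and damaged droplets in these differences was not tested.

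**Figure D4:**
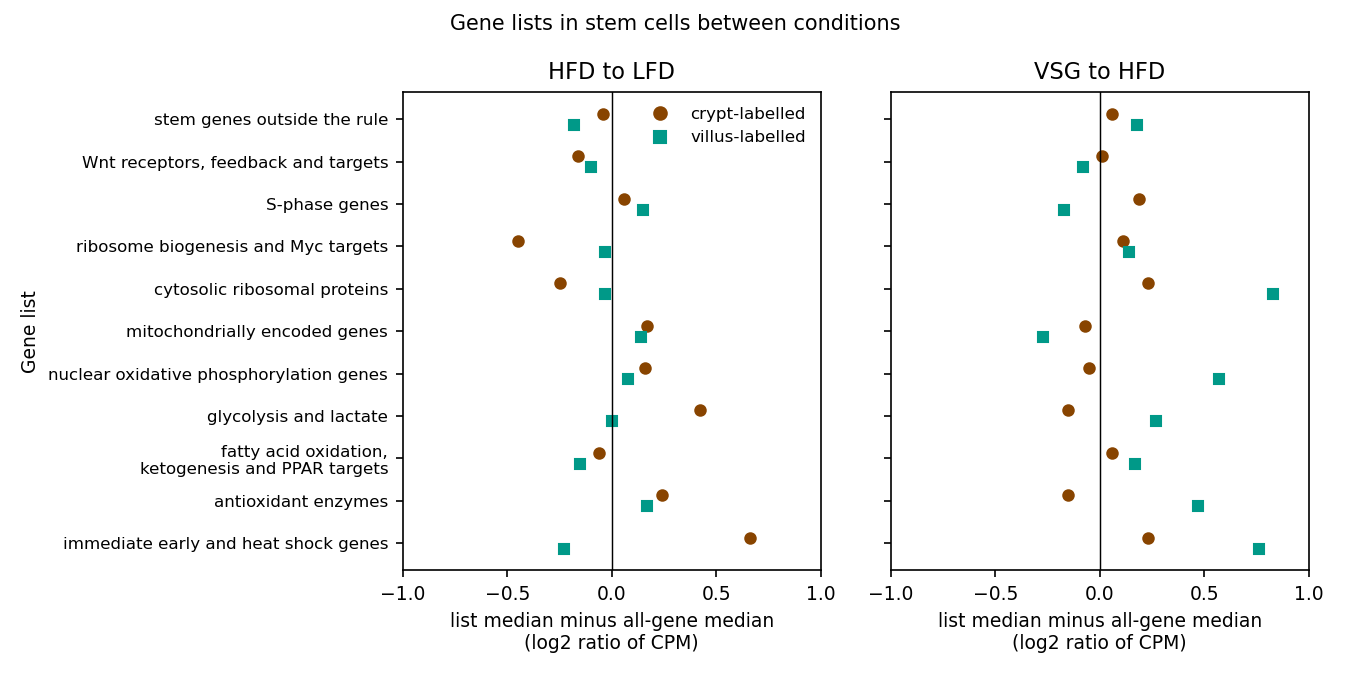
Median log2 ratio of the genes of each list in stem cells minus the median of all genes (horizontal axis), from LFD to HFD sham (left) and from HFD sham to HFD VSG (right), in crypt-labelled (circles) and villus-labelled (squares) libraries; no replicate error exists for these points. Of the lists shown, which leave out MHC class II and the markers of other cells among others, the point farthest from 0 is that of ribosomal proteins in HFD VSG villi at 0.83.

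Transcripts of differentiated cells varied widely between the libraries. Enterocyte markers summed to 4818, 22528 and 16995 CPM in LFD sham, HFD sham and HFD VSG crypts and to 7467, 8446 and 2816 CPM in villi. The median stem cell held 0.450%, 0.871% and 0.707% of its UMIs from them in crypts and 0.237%, 0.248% and 0.154% in villi, and the highest cell of a library 1.96% to 9.15%. In LFD sham crypts the sum was close to the level of the median cell, while in the other 5 libraries it lay well above it. Reg3b, an antimicrobial lectin, showed a like split, with sums of 2122, 2952 and 1981 CPM in crypts and 3268, 1330 and 214 CPM in villi, but medians over cells of 913, 498 and 415 CPM and of 812, 185 and 80.2 CPM. These medians were highest in LFD sham of either compartment. Reg3g had medians of 284, 111 and 118 CPM in crypts and 345, 26.5 and 51.2 CPM in villi. Free RNA of all 6 Reg lectin and Prap1 genes stood at 7310 to 14211 CPM and was also highest in LFD sham of either compartment; its part in the medians was not tested. In HFD sham crypts 1 cell held 65.7% of the Chgb UMIs of all stem cells there, and in HFD VSG crypts 1 cell held 96.4% of those of the hormone gene Sct.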

How the data were processed

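The authors aligned the reads to mm10 with Cell Ranger 6.0.0 (submitters' processing notes) and deposited raw counts, 1 per UMI of a gene in a barcode, for every barcode and again for called cells. Libraries were made with 10x 3′ v3.1 reagents. The stem cell rule and the gene lists were chosen with earlier results of these data known.

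The filters and the rule were applied to the counts as deposited. Counts were summed by class and mouse pool (crypt- and villus-labelled libraries together) and tested with edgeR 4.0.16 (R 4.3.3; filterByExpr, TMM, pool as block, quasi-likelihood). Stem cells were compared between conditions by log2 ratios of CPM with exact intervals at 95%, sums below 3 UMIs set to 3; with 1 library per condition there was no test. Both procedures were tested on simulated data. Named genes were list members, the 10 largest called folds per direction with at least 100 UMIs in every pool of the higher class, and for conditions up to 5 genes per direction past 1 in both compartments and 3 within each. Likely doublets (the highest 0.8% per 1000 called barcodes against simulated doublets) were kept and removed in an alternative. Free RNA was not subtracted except in alternatives. DESeq2 1.42.0, median-of-ratios and RLE scaling, other filters and left-out pools or libraries were further alternatives. Promoters came from RefSeq. Figures used matplotlib 3.10.9, doublet scores scikit-learn 1.9.0, intervals scipy 1.17.1 and all else pandas 2.3.3 in Python 3.11.15. The values of 1 listed gene are not reported here.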

Additional observations from a re-analysis of the deposited data

Results flagged for a closer look

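Several values in stem cells lay on opposite sides of 0 in crypt- and villus-labelled libraries, with counting intervals clear of 0 on both sides; none of these differences was tested, since each compartment had 1 library per condition. From LFD to HFD sham, Agr2 stood at a log2 ratio of -0.27 in crypts and 1.80 in villi, Spink4 at -1.66 and 0.69, Gm43305 at -1.04 and 0.23, and the summed goblet markers at -0.58 and 1.32, with 40.9% to 71.4% of the Agr2 UMIs of these 4 libraries in 1 cell each. The goblet sum includes the 5 goblet genes that the choice of cells limits, so it is a description only. An alternative turned 1 side of 3 of these: Agr2 in crypts was 0.08 at a maximum of 10% mitochondrial UMIs, Spink4 in villi -0.23 without likely doublets and Gm43305 in villi -0.22 with cells weighted equally. The summed Reg lectins and Prap1 stood at 0.44 and -1.22, the immediate early and heat shock genes at 0.37 and -0.21, and the S-phase genes at -0.28 and 0.29. From HFD sham to HFD VSG, the hormone gene Sct stood at 2.45 in crypts, where 96.4% of its UMIs in HFD VSG came from 1 cell, and at -3.08 in villi. The summed stem cell genes outside the choice stood at 0.17 and -0.29, the Wnt genes at 0.15 and -0.27 and the S-phase genes at 0.23 and -0.32; the median of all genes lay 0.05 and -0.20 from 0 in these comparisons.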

How the results depend on the processing

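Shares moved with the filters and with thinning. At a maximum of 10% mitochondrial UMIs they were 1.77%, 2.34% and 4.40% in LFD sham, HFD sham and HFD VSG crypts and 3.94% and 1.25% in LFD and HFD sham villi; without the Lgr5 condition 0.824%, 1.34% and 2.20% in crypts and 4.89%, 1.85% and 6.37% in villi; thinned to 2000 UMIs 0.228%, 0.382%, 0.659%, 1.28%, 0.347% and 1.47%; and at 1500 genes 3.56% in LFD sham villi. Called genes against dividing cells numbered 665 to 936 higher and 448 to 612 lower with a mouse pool left out, 801 to 1324 and 1159 to 1422 against Paneth cells, and 1899 to 2218 and 2373 to 2690 against other barcodes. With 6 libraries as blocks 438 were higher than in dividing cells, and with crypt-labelled libraries alone 317, with 773 lower than in Paneth cells; against other barcodes 1143 were higher at 10% mitochondrial UMIs and 1281 in villus-labelled libraries alone. The alternative without HFD VSG villi was chosen after seeing the data and kept all 6 counts within 1.5 times. The class counts paired the classes within a mouse pool or library. Between conditions no paired analysis was possible, because each condition had 1 library per compartment, and those ratios come from no test.

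Counts past a log2 ratio of 1 in crypts, HFD to LFD sham, were 217 higher with free RNA subtracted by the fraction of immune barcodes, 51 at 0.3% stem genes, 50 at 10% mitochondrial UMIs, 40 higher and 11 lower of 1536 genes without likely doublets, and 25 and 2 at a mean of 200 UMIs, which leaves 329 genes in crypts and 1835 in villi. HFD VSG to HFD sham in crypts gave 15 higher and 121 lower with that subtraction, 28 lower at a fraction of 0.1, 2 and 20 at 0.3%, 5 higher at 10% and without mitochondrial and damaged-droplet transcripts, 4 without doublets, 19 with cells weighted equally, and 0 and 6 at 200 UMIs. In villi, HFD to LFD sham gave 139 and 58 higher with the subtractions, 67 at 10%, 75 and 189 with equal weights and 6 and 9 at 200 UMIs; HFD VSG to HFD sham gave 357 and 196 by median-of-ratios, 200 higher with equal weights and 28 and 91 at 200 UMIs. The causes were not tested.

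MHC class II kept its direction in the alternatives run for it; HFD to LFD sham in crypts was -1.23 with the first subtraction and otherwise -1.94 to -1.66, and HFD VSG to HFD sham in villi ranged from -0.51 to -0.10. The subtraction in dividing cells was also chosen after seeing the data. Without the top cell of each library, chosen after seeing the data, the last ratio was -0.21 (-0.61 to 0.22). Directions turned in 6 list medians: oxidative phosphorylation, HFD to LFD sham, at -0.03 in crypts and 0.00 in villi with equal weights; ribosomal proteins at 0.00 in villi and mitochondrial genes at -0.08 and -0.04 at 10%; and Wnt genes at 0.04 in HFD VSG villi by median-of-ratios. Single genes turned from LFD to HFD sham: AY036118 (0.24 in villi with equal weights, -0.12 in crypts and 8.32 in villi with the first subtraction), Defa24 (0.04, 1.89), Gm43305 (-0.22), Reg3b (-0.04 with equal weights, -1.0 without doublets), Guca2a (-0.59) and Spink4 (-0.23) without doublets, Reg3g (2.82 with the subtraction), Agr2 (0.08), mt-Atp8 (-0.05) and Gm7861 (-0.36, and -0.02 at 0.3%) at 10%. From HFD sham to HFD VSG in crypts they were Reg3g (-0.93 with equal weights, -0.47 without doublets, -0.78 at 0.3%) and AY036118 (3.31 with the subtraction).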
